A study of Mus musculus with 9 samples.

Results

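The immediate early response genes examined here were Fos, Fosb, Jun, Junb, Egr1, Egr2, Ier2, Nr4a1, Dusp1 and Zfp36. They were taken by gene symbol, and all 10 were present among the 28379 genes of the deposited table. All 10 also passed the filter on low counts, which left 17002 genes for testing. Immediate early genes are transcribed within minutes of a signal and need no new protein for it, because MAP kinases act on factors that already sit in the nucleus, such as SRF with its ELK partners and CREB. Their transcripts are short-lived, and several of their products, among them DUSP1 and ZFP36, shut the same response off. In osteoclast precursors the FOS and JUN proteins pair to form the transcription factor AP-1, and c-Fos is needed for the osteoclast programme that RANKL, the osteoclast differentiation cytokine, starts.

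The cells were primary bone marrow derived macrophages (BMDMs) of mice aged 10 weeks, named C57BL/6 in the series' description and C57BL/6J in the methods text, and M-CSF, the growth factor of macrophages, was present in every group at 20 ng/ml. Cells of the PBS group were left without RANKL, and those of the RANKL group were given 100 ng/ml of it. In the third group, RANKL + Vit D + K (the vitamin group below), the same RANKL dose was combined with calcitriol (vitamin D) at 1000 nM and menaquinone-4 (vitamin K) at 20 μM. This vitamin K dose is the one on the labels, and the methods text gives a different one. RNA was collected at 48 h, and each group had 3 libraries of mRNA sequenced in bulk. No group received a single vitamin, so the parts of vitamins D and K cannot be told apart. The number of mice or cultures per library is not given in the sources used here, which mention pooled RNA, so the p-values measure only the spread between these libraries, which may be technical. The labels and methods name no genetic change in the mice.

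Libraries held 65915112 to 68229647 counts, so that 3 counts corresponded to 0.0440 to 0.0455 CPM (counts scaled to library size). Macrophage markers were present in every library, with the FPKM (a level normalised for gene length and library depth) of 8 genes summing to 4533 at the lowest and 30649 at the highest. The summed FPKM of 10 osteoclast markers was 23.6 to 31.8 in PBS, 488.9 to 1022.3 in the RANKL group and 70.4 to 100.4 in the vitamin group. The summed FPKM of dendritic cell markers, led by Itgax, was 0.567 to 1.15 in PBS, 2.09 to 2.46 in the RANKL group and 6.60 to 8.07 in the vitamin group. That of the T cell list (Cd4 alone in the table) was 0.338 to 0.639, 2.26 to 3.77 and 0.0788 to 0.211 in the same groups. Those of the stromal, B cell, erythroid and mast cell lists did not exceed 0.318, 0.134, 0.238 and 0.0633 in any library. In bulk RNA, fewer cells of a type and less RNA per cell cannot be told apart.

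Replicate 2 of the vitamin group stood apart from replicates 1 and 3 of its group. On TMM-scaled CPM with a prior count of 2, it was at least 4-fold above both of them for 4 of the 10 immediate early genes (Fos, Egr1, Ier2 and Nr4a1), against 3.19% of all genes tested. None of the 10 lay at least 4-fold below both, against 1.46% of all genes. Its summed macrophage marker FPKM was 11576, beside 4533 and 6218 in replicates 1 and 3 and 16672 to 24298 in the RANKL group. That gap came from Lyz2, the lysozyme gene (3189, 10168 and 4852 in vitamin replicates 1, 2 and 3), while the other 7 macrophage markers summed to 1343, 1408 and 1366. Cd68 led that sum (788.9, 683.4 and 681.3). Cd14 was higher in replicate 2 (47.7, 68.9 and 49.2), while Adgre1, Itgam and Mertk were near their replicate 3 values. In edgeR (adjusted p below 0.05), 6 of the 8 were called lower with the vitamins than with RANKL and 1 (Cd68) higher, against 17.2% and 16.4% of all genes. Of the osteoclast markers, 8 of 10 were called lower in edgeR (adjusted p below 0.05) with the vitamins than with RANKL, with and without replicate 2, against 17.2% and 25.2% of all genes, while Itgb3 was called higher and Atp6v0d2 was not called. Replicate 2 was apart on some of these too, with Acp5 at 1.02, 7.86 and 1.56 FPKM and Dcstamp at 0.110, 0.906 and 0.283 in vitamin replicates 1, 2 and 3. Results that rest on this library are therefore given with it and without it. Every comparison comes from 1 model over all 9 libraries, in which the 3 groups share an estimate of the spread, so leaving out this library also changed the p-values of the RANKL against PBS comparison.

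Promoter sequences are shown for Fos, Jun, Egr2 and Dusp1, because Fos differed most between libraries among the genes with counts in all of them, and the other genes were the ones that passed the test between the vitamin and RANKL groups. RefSeq windows from 250 bases before to 50 bases after the start were matched for 8 of the 10 genes, on GRCm38.p6, and for Egr2 there were 5 starts. No window was at hand for Egr1 and Ier2. Of the sequences below, Fos lies at chr12:85473740-85473889 on the plus strand, Jun at chr4:95052223-95052372 on the minus strand, Egr2 at chr10:67537719-67537868 on the plus strand and Dusp1 at chr17:26508520-26508622 on the minus strand, each written 5′ to 3′ on the gene's strand with the first base at -150, counted from the first transcribed base as 0. The Fos, Jun and Egr2 sequences end at -1 and that of Dusp1 at -48. Capitals mark the motifs found in them: the cyclic AMP response element (CRE) TGACGTCA, its core TGACG or the reverse complement of that core, the related Jun-type site TGACATCA, the CArG box bound by SRF, and the TATA motif TATAAA.
Fos: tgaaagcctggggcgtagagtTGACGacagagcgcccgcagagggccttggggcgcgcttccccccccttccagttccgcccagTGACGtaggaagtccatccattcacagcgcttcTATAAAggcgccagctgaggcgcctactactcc
Jun: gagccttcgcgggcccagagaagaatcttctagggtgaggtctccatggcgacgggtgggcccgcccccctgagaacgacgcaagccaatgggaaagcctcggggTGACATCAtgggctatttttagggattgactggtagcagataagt
Egr2: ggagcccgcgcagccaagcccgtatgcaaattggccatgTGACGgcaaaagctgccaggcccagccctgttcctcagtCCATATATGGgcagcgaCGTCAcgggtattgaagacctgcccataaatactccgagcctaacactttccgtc
Dusp1: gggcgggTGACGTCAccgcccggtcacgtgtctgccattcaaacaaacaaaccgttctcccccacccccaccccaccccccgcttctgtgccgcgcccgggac

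In the Fos window the CRE core began at -129 and at -66 and the TATA motif at -33, counted in the same way. The Jun-type site of Jun began at -45, the CArG box of the Egr2 start shown at -72 with CRE cores at -111 and -55, and the complete CRE of Dusp1 at -143. Over both strands, the CRE core was found in 6 of the 8 genes with a window (Fos, Fosb, Junb, Egr2, Nr4a1 and Dusp1) and in 20.81% of all 32851 windows. Genes were counted over any of their windows (12 for the 8 genes, 5 of them for Egr2), while shares are per single window, so these are unlike measures. Every complete CRE contains this core, and the complete CRE was found in 1 gene, Dusp1, and in 1.79% of windows. The CArG box was found in Egr2 and Zfp36 (1.63% of windows), the Jun-type site in Jun (3.62%), the EGR site GCGNGGGCG in Fosb, Nr4a1 and Zfp36 (5.55%) and TATAAA in Fos and Junb (13.62%). A match describes these letters only and is not a measured binding site.

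Fos, which encodes the AP-1 subunit c-Fos (chr12:85473890-85477273, plus strand, GRCm38), had the widest range of levels among the genes with counts in every library. Adjusted p-values here and below are from the quasi-likelihood test of edgeR, adjusted by Benjamini-Hochberg over all genes tested. The FPKM of Fos was 17.4, 27.9 and 8.12 in PBS replicates 1, 2 and 3. With RANKL the same replicates read 64.9, 145.0 and 23.5, and with RANKL and the vitamins 0.640, 59.7 and 0.404. RANKL replicate 3 lay below PBS replicate 2, so these groups overlapped, and vitamin replicate 2 lay among the RANKL libraries while vitamin replicates 1 and 3 lay far below all others. The counts behind the vitamin values were 114, 10811 and 71, so the low libraries were not at the detection limit. In each same-numbered pair of libraries Fos was higher with RANKL than with PBS. A replicate block, a model term for replicate number, gave a log2 fold change of 1.69 for RANKL over PBS (adjusted p = 0.433, edgeR). In the main model, which has no such term, the log2 fold change of RANKL over PBS was 1.98 ± 1.48 (SE, n = 3 per group, adjusted p = 0.537, edgeR). That of the vitamins over RANKL was -1.89 ± 1.48 (adjusted p = 0.353, edgeR), and without vitamin replicate 2 it was -6.95 ± 0.96 (adjusted p = 0.000458, edgeR). Against PBS the vitamin group differed by 0.08 ± 1.43 with that library (adjusted p = 0.969, edgeR) and by -4.97 ± 0.88 without it (adjusted p = 0.00169, edgeR). On TMM-scaled CPM with a prior count of 2, which narrows folds of low values, vitamin replicate 2 was 76.8-fold above replicate 1 and 127.1-fold above replicate 3. In FPKM the latter fold was 147.6.

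Fosb, which encodes the c-Fos relative FosB (chr7:19302696-19310051, minus strand), was barely detected. Its counts were 41, 11 and 21 in PBS, 40, 15 and 33 in RANKL and 0, 20 and 4 in the vitamin group. The count of 0 in vitamin replicate 1 allows up to 0.0448 CPM, and intervals and limits of this kind cover counting error only. Without vitamin replicate 2 Fosb was called lower with the vitamins than with RANKL (log2 fold change -3.59 ± 1.23, adjusted p = 0.0404, edgeR), on the few counts of the other 2 vitamin libraries. With all libraries the fold change was -1.82 ± 1.10 (adjusted p = 0.231, edgeR).

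Jun, which encodes the AP-1 subunit c-Jun (chr4:95049034-95052222, minus strand), had the lowest adjusted p of the 10 genes for the vitamins against RANKL. FPKM was 18.1, 22.6 and 14.9 with PBS and 13.3, 20.0 and 8.96 with RANKL. In the vitamin group it was 69.4, 57.4 and 62.3, and each of these libraries lay above each library of the other groups, vitamin replicate 2 included. Jun was higher with the vitamins than with RANKL by a log2 fold change of 2.34 ± 0.27 (adjusted p = 0.000773, edgeR) and than in the PBS group by 1.80 ± 0.26 (adjusted p = 0.00109, edgeR). Between RANKL and PBS the groups overlapped, with a log2 fold change of -0.53 ± 0.26 (adjusted p = 0.311, edgeR). The annotation places Junos, an RNA gene on the opposite strand, over Jun, and since the sources used here do not say whether counting used strand, reads of the pair cannot be told apart.

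Junb, whose product JunB also pairs with FOS proteins (chr8:84976910-84978718, minus strand), read 33.01, 41.0 and 30.8 FPKM in the PBS group. Its FPKM was 67.6, 102.3 and 49.0 in RANKL and 97.8, 66.4 and 81.7 in the vitamin group. Both RANKL-treated groups thus lay above all PBS libraries, and they overlapped each other. Junb was called higher with the vitamins than in PBS, at a log2 fold change of 1.28 ± 0.26 (adjusted p = 0.00508, edgeR). Between RANKL and PBS it was 0.93 ± 0.26 and missed the threshold of 0.05 (adjusted p = 0.0898, edgeR), and without vitamin replicate 2 the same fold change passed it (adjusted p = 0.0341, edgeR).

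**Figure D1:**
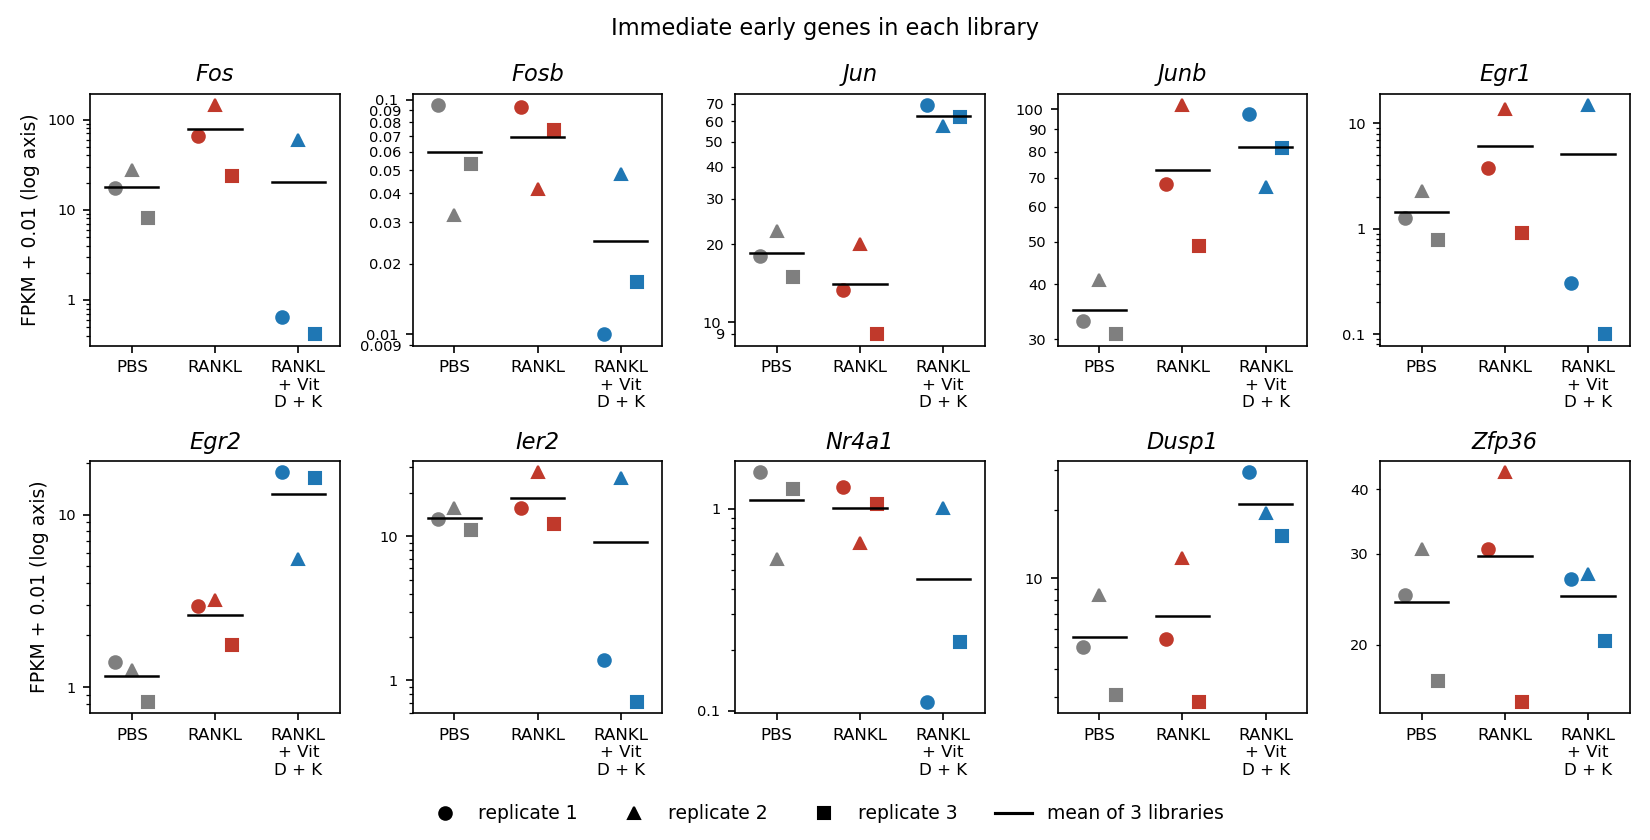
FPKM plus 0.01 on a log axis for the 10 immediate early genes, with a panel per gene, circles, triangles and squares for replicates 1, 2 and 3, and a bar at the mean of 3 libraries. The triangle of the RANKL + Vit D + K group stands near the RANKL libraries for Fos (59.7), Egr1 (15.0), Ier2 (25.4) and Nr4a1 (1.004), whereas for Jun its 57.4 stands with the other vitamin libraries.

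The makeup of the FOS and JUN families is given here as each gene's share of the summed FPKM. Fos contributed 69.1%, 80.6% and 35.0% of the summed FPKM of Fos, Fosb, Fosl1 and Fosl2 in PBS replicates 1, 2 and 3, and 82.2%, 89.3% and 63.2% in the RANKL replicates. In the vitamin group it contributed 23.8%, 91.3% and 12.5%, and most of the rest came from Fosl2. The summed FOS family FPKM was 2.69 and 3.24 in vitamin replicates 1 and 3 and 65.4 in replicate 2, against 37.2 to 162.4 in the RANKL group. Jun contributed 19.8% to 26.1% of the summed FPKM of Jun, Junb and Jund in PBS, 10.6% to 13.2% in the RANKL group and 36.1% to 37.4% in the vitamin group. These shares did not overlap between the 3 groups, and vitamin replicate 2 (36.8%) was like the other vitamin libraries in this respect.

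**Figure D2:**
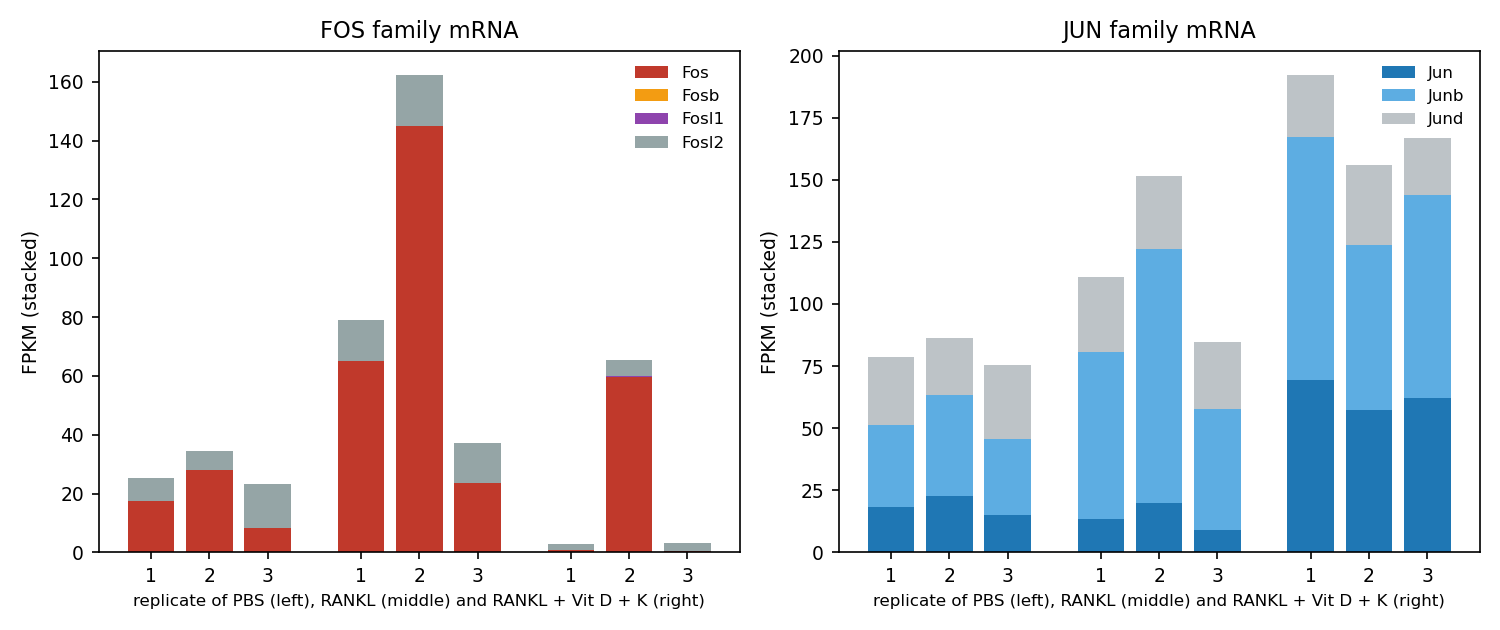
Stacked FPKM of the FOS family (left panel) and the JUN family (right panel) in each of the 9 libraries, with 1 bar per library. The FOS bar is 162.4 in RANKL replicate 2 and 65.4 in vitamin replicate 2 but 2.69 and 3.24 in vitamin replicates 1 and 3, while all vitamin JUN bars, 156.0 to 192.4, stand above the RANKL and PBS bars.

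Egr1 and Egr2 encode zinc finger transcription factors of 1 family that bind the same GC-rich sites, and EGR2 is a known transcription factor of the macrophage lineage. Egr1 had FPKM of 1.26, 2.26 and 0.780 in PBS, 3.81, 13.6 and 0.895 in RANKL and 0.293, 15.0 and 0.0894 in the vitamin group. Vitamin replicate 2 held the highest Egr1 level of all 9 libraries, and the other vitamin libraries held the lowest ones. The vitamins against RANKL gave a log2 fold change of -0.19 ± 1.46 (adjusted p = 0.933, edgeR), and -4.72 ± 1.17 without vitamin replicate 2 (adjusted p = 0.00991, edgeR). Against PBS the values were 1.73 ± 1.51 (adjusted p = 0.388, edgeR) and, without that library, -2.79 ± 1.07 (adjusted p = 0.0579, edgeR). The direction of the Egr1 difference from PBS thus turned with this library.

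Egr2 (chr10:67535475-67542188, plus strand) was high in other libraries than Egr1. Its FPKM was 1.39, 1.24 and 0.810 in PBS, 2.93, 3.19 and 1.75 in RANKL and 17.5, 5.50 and 16.2 in the vitamin group. No library of a group lay within the range of another, so Egr2 was lowest in PBS and highest with the vitamins. With the vitamins Egr2 was higher than with RANKL by 2.52 ± 0.46 (adjusted p = 0.00458, edgeR) and higher than in PBS by 3.58 ± 0.49 (adjusted p = 0.000832, edgeR). The RANKL group was above PBS by 1.06 ± 0.45, which missed the threshold (adjusted p = 0.248, edgeR) and passed it without vitamin replicate 2 at the same fold change (adjusted p = 0.0316, edgeR). For Egr2 vitamin replicate 2 was the lowest of its group, in the direction of the RANKL libraries.

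Ier2, which encodes a small nuclear protein induced by growth factors (chr8:84661331-84662854, minus strand), was split between the libraries of the vitamin group. FPKM was 13.2, 15.5 and 11.1 with PBS and 15.6, 27.6 and 12.1 with RANKL. In the vitamin group it was 1.37, 25.4 and 0.701, from 157, 2982 and 80 counts. Vitamin replicates 1 and 3 lay below every other library, and replicate 2 lay between RANKL replicates 1 and 2. Against RANKL the log2 fold change was -0.96 ± 1.01 (adjusted p = 0.494, edgeR), and without vitamin replicate 2 Ier2 was lower with a fold change of -3.90 ± 0.43 (adjusted p = 0.000133, edgeR). Against PBS the fold change was -0.63 ± 1.00 (adjusted p = 0.651, edgeR), and it moved to -3.57 ± 0.42 without that library (adjusted p = 0.000190, edgeR).

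Nr4a1 encodes the orphan nuclear receptor NUR77 (chr15:101254269-101274795, plus strand). Its FPKM was 1.504, 0.556 and 1.24 in PBS, 1.28, 0.668 and 1.05 in RANKL and 0.1004, 1.004 and 0.208 in the vitamin group. In PBS and RANKL replicate 2 held the lowest Nr4a1 level, unlike Fos, Egr1 and Ier2, which were highest there. The vitamins over RANKL gave -1.13 ± 0.71 (adjusted p = 0.248, edgeR), and -2.46 ± 0.55 without vitamin replicate 2 (adjusted p = 0.00578, edgeR). Against PBS it was -1.39 ± 0.71 (adjusted p = 0.148, edgeR), and -2.72 ± 0.55 when that library was left out (adjusted p = 0.00343, edgeR).

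Dusp1 encodes MKP-1, a phosphatase that inactivates the p38 and JNK kinases. Its FPKM was 5.01, 8.44 and 3.06 in PBS, 5.41, 12.3 and 2.86 in RANKL and 29.1, 19.4 and 15.2 in the vitamin group. All vitamin libraries lay above all others, while the PBS and RANKL libraries were intermixed. With the vitamins Dusp1 was higher than with RANKL by 1.83 ± 0.52 (adjusted p = 0.0259, edgeR) and higher than in PBS by 1.996 ± 0.53 (adjusted p = 0.0155, edgeR). The call against RANKL was lost without RANKL replicate 1 (1.71, adjusted p = 0.0933, edgeR), RANKL replicate 3 (1.47, adjusted p = 0.0713, edgeR) or vitamin replicate 1 (1.45, adjusted p = 0.0933, edgeR). The call against PBS was lost without PBS replicate 1 (1.99, adjusted p = 0.0557, edgeR) or PBS replicate 3 (1.76, adjusted p = 0.0551, edgeR). The file's span for Dusp1 (chr17:26505590-26562128, minus strand) overlaps Ergic1 and Gm8225 on the opposite strand and Gm50275 on its own, so its counts may include reads of these genes.

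Zfp36 encodes tristetraprolin, which binds AU-rich elements in mRNA and speeds the decay of cytokine transcripts (chr7:28376784-28380253, minus strand). Its FPKM was 25.02, 30.7 and 17.0 in PBS, 30.6, 43.1 and 15.5 in RANKL and 26.9, 27.4 and 20.4 in the vitamin group. The 3 groups overlapped, and no comparison passed the test. The log2 fold change of the vitamins over RANKL was -0.09 ± 0.32 (adjusted p = 0.848, edgeR), and without vitamin replicate 2 it was -0.09 ± 0.37 (adjusted p = 0.860, edgeR). Gm44710 overlaps Zfp36 on the opposite strand.

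Across the 10 genes, RANKL against PBS gave no call at an adjusted p below 0.05 in edgeR, where 3.61% of all genes tested were called. At an unadjusted p below 0.05 there were 2 of the 10 (Junb and Egr2), against 18.6% of all genes, and DESeq2 called 1 (Junb), against 10.9% of the genes to which it gave an adjusted p. For 2 of the 10 the ranges of the groups were apart, against 35.7% of all genes. Without vitamin replicate 2 the call was made for 2 of the 10, Junb and Egr2, both higher, against 5.46% of genes called higher. The smallest p that an exact two-sided permutation test of 3 against 3 libraries can give is 0.1, so a single gene could not pass by that test. For the vitamins against RANKL, edgeR called 3 of the 10, all higher (Jun, Egr2 and Dusp1), against 16.4% of genes called higher, 17.2% called lower and 33.7% in either direction, and those 3 were the ones whose groups did not overlap, against 46.8% of genes. Without vitamin replicate 2 there were 3 higher, against 21.2%, and 5 lower (Fos, Fosb, Egr1, Ier2 and Nr4a1), against 25.2%. For the vitamins against PBS, 4 were called, all higher (Jun, Junb, Egr2 and Dusp1), against 19.8% called higher, 21% called lower and 40.8% in either direction, and the same 4 were without overlap, against 53.1% of genes. Without vitamin replicate 2 the numbers were 4 higher, against 23.3%, and 4 lower (Fos, Fosb, Ier2 and Nr4a1), against 26.5%. The comparisons share libraries, so their calls are not independent of each other.

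**Figure D3:**
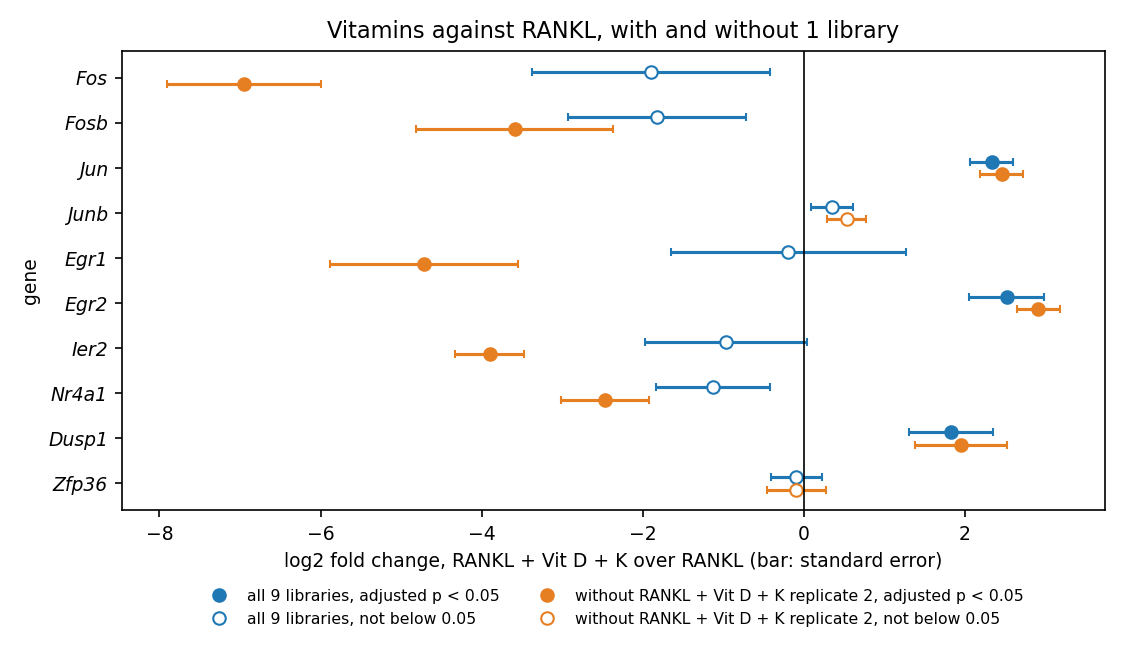
Log2 fold change of RANKL + Vit D + K over RANKL with its standard error for the 10 genes, with all 9 libraries (blue) and without vitamin replicate 2 (orange), filled where the adjusted p was below 0.05. Fos moves from -1.89 to -6.95, Egr1 from -0.19 to -4.72 and Ier2 from -0.96 to -3.90, whereas Jun moves from 2.34 to 2.46.

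The order of the mean FPKM levels also differed between groups. In PBS it ran from Junb (34.9 ± 5.36, SD, n = 3) through Zfp36, Jun, Fos, Ier2, Dusp1, Egr1, Egr2 and Nr4a1 to Fosb (0.0501 ± 0.0320). Of the 9 neighbouring pairs in that order, 4 did not overlap between libraries (Junb and Zfp36, Ier2 and Dusp1, Dusp1 and Egr1, Nr4a1 and Fosb). In the RANKL group Fos had the highest mean (77.8 ± 61.8) and Junb the next (73.0 ± 27.1), but their libraries overlapped. There the order went on with Zfp36, Ier2, Jun, Dusp1, Egr1, Egr2, Nr4a1 and Fosb, and 3 neighbouring pairs did not overlap. In the vitamin group the order was Junb (82.0 ± 15.7), Jun (63.0 ± 5.99), Zfp36, Dusp1, Fos (20.3 ± 34.2), Egr2, Ier2, Egr1, Nr4a1 and Fosb, and 2 neighbouring pairs did not overlap. The SD exceeded the mean there for Fos, Egr1, Ier2, Nr4a1 and Fosb, and in the RANKL group for Egr1, so their mean levels there are poorly determined, though in the vitamin group each Fosb value lay below all those of the other genes.

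The replicates of PBS and RANKL also differed in a common order, here counted on TMM-scaled CPM. Replicate 2 was the highest of its group for 7 of the 10 genes in PBS and for 8 in RANKL, where it was the highest for 34.7% and 35.8% of all genes. In the vitamin group replicate 2 was the highest for 5 of the 10, against 44.5% of all genes. Zfp36 was highest there in replicate 1 on this scale and in replicate 2 in FPKM. Replicate 3 was the lowest for 8 of the 10 in PBS, against 33.6% of all genes, and for 8 in RANKL, against 29.6%. Summed FPKM of the 8 neutrophil markers ran in the same order, at 65.2, 128.1 and 11.1 in PBS replicates 1, 2 and 3 and 90.5, 147.9 and 11.3 in RANKL. In the vitamin group these markers summed to 0.757, 1.72 and 0.551, and Ly6g, Mpo, Elane, Ltf and Camp were at 0 in all 3 of its libraries. Vitamin replicate 2 had Fos at 59.7 FPKM and a neutrophil marker sum of 1.72. The part of neutrophils in the levels of the 10 genes was not tested in any group.

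**Figure D4:**
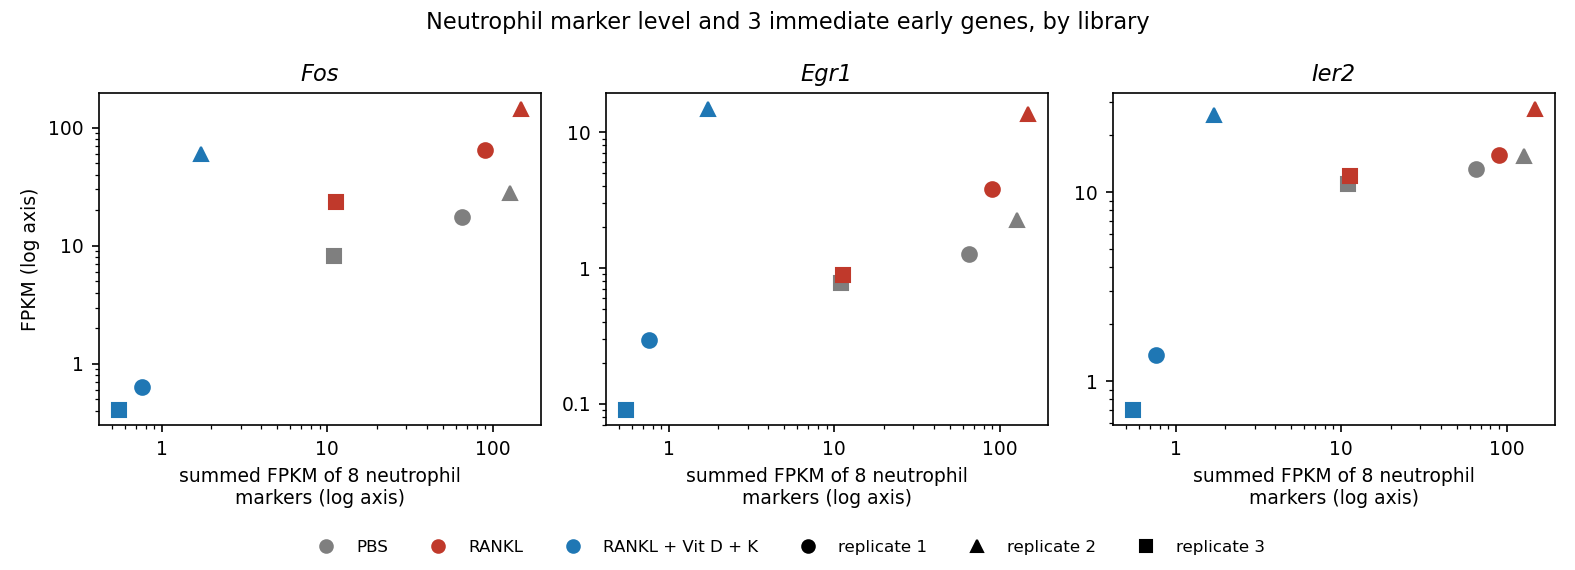
FPKM of Fos, Egr1 and Ier2 against the summed FPKM of 8 neutrophil markers in each library, on log axes, with colours for groups and shapes for replicates. In PBS and RANKL, the libraries with the highest marker sums (128.1 and 147.9) have the highest levels. The blue triangle is vitamin replicate 2, at a marker sum of 1.72. The part of neutrophils in the levels was not tested.

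Heat shock genes, which respond to handling stress as immediate early genes do, were summed over 10 genes. Their FPKM was 411.1, 423.1 and 391.8 in PBS, 566.4, 688.2 and 508.0 in RANKL and 543.0, 531.6 and 471.0 in the vitamin group. Replicate 2 was again the highest in PBS and RANKL, and in the vitamin group it lay between replicates 1 and 3. The sum there was led by Hspa8 (305.0, 286.0 and 255.7), and the other 9 genes summed to 238.0, 245.6 and 215.2, with replicate 2 the highest. In edgeR, 1 of the 10 was called higher with RANKL than in PBS (Hspe1, a mitochondrial chaperonin, 0.54 ± 0.11, adjusted p = 0.0352), against 2.35% of all genes called higher. With the replicate block 2 were called, Hspe1 and Hsp90aa1 (adjusted p = 0.0198, edgeR), where 825 of all 17002 genes were called in either direction. Without vitamin replicate 2 there were 5 (Hspa1a, Hspa1b, Hsp90aa1, Hspe1 and Hspd1), against 5.46% of genes. With the vitamins 2 were above RANKL and 1 was below it, namely Hspd1 (0.96), Hspe1 (0.35) and Hspa8 (-0.40), against 16.4% and 17.2% of all genes. Against PBS the vitamin group had 6 higher calls and no lower one (Hspa1a, Hspa1b, Hsph1, Hsp90aa1, Hspe1 and Hspd1, from 0.89 to 2.75 on the log2 scale), against 19.8% and 21% of all genes. The part of handling stress in the levels of the immediate early genes was not tested.

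Genes related to the 10 were followed in 8 lists, of which 79 genes passed the filter. Between RANKL and PBS, 4 of the 79 were called higher and 3 lower, where 2.35% and 1.26% of all genes were called. These counts were 4 and 9 without vitamin replicate 2, against 5.46% and 5.23% of genes. With the replicate block they were 4 and 4, where 825 of all 17002 genes were called in either direction. Il1b was then called lower (-2.65, adjusted p = 0.00597, edgeR) where it had not been (-2.67, adjusted p = 0.296, edgeR). Between the vitamins and RANKL 26 were higher and 19 lower, against 16.4% and 17.2% of genes, and without that library 34 and 22, against 21.2% and 25.2%. Between the vitamins and PBS 27 were higher and 16 lower, against 19.8% and 21% of genes, and without that library 31 and 22, against 23.3% and 26.5%. The members' median log2 fold change for the vitamins over RANKL was -0.14, beside -0.04 for all genes tested. Of 10 other AP-1 genes tested, the vitamin group was higher than RANKL in 4 and lower in 4. Atf3, a stress-induced bZIP factor, had FPKM of 31.1, 28.1 and 24.2 with RANKL and 427.3, 116.9 and 369.7 in the vitamin group (3.65 ± 0.46 on the log2 scale, adjusted p = 0.00112, edgeR). The small MAF genes Mafg (1.07 ± 0.12) and Mafk (2.36 ± 0.47) were higher as well, with adjusted p of 0.000773 and 0.00617 in edgeR. Fosl2, which encodes the FOS family member FRA2, was lower, at 14.01, 17.3 and 13.6 FPKM with RANKL and 2.02, 5.54 and 2.83 with the vitamins (-2.0 ± 0.37, adjusted p = 0.00483, edgeR). Jdp2, a bZIP factor known in osteoclast differentiation, was higher with RANKL than in PBS by 3.36 ± 0.41 (adjusted p = 0.00502, edgeR). Mafg was lower in that comparison, at -0.61 ± 0.12 (adjusted p = 0.0297, edgeR).

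For the vitamins against RANKL, 1 of 3 other EGR and NAB genes tested was lower, namely Egr3 (-1.49 ± 0.49, adjusted p = 0.0429, edgeR). Egr3 therefore had the opposite sign to Egr2, though its FPKM stayed under 1 in all libraries. Of 5 other NR4A and IER genes, Ier3, a survival-related early gene, was called, higher with the vitamins than with RANKL by 1.37 ± 0.33 (adjusted p = 0.0139, edgeR). It was lower with RANKL than in PBS, at -1.97 ± 0.34 (adjusted p = 0.0182, edgeR). Without vitamin replicate 2 a second gene of this list was called, Ier5 (1.11, adjusted p = 0.000942, edgeR).

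Among 8 other MAP kinase phosphatases, the vitamins gave 3 higher and 1 lower call against RANKL, and 3 and 2 without vitamin replicate 2. Dusp4, a nuclear MAP kinase phosphatase, went from 3.24, 9.34 and 2.06 FPKM with RANKL to 123.6, 40.1 and 86.7 with the vitamins (4.32 ± 0.62, adjusted p = 0.00172, edgeR). Dusp8 and Dusp16, which act on JNK and p38, were higher by 4.19 ± 1.09 and 1.81 ± 0.25 (adjusted p = 0.0175 and 0.00151, edgeR), and Dusp8 stayed under 1.5 FPKM throughout. Dusp7, which acts on ERK, was lower, at -0.74 ± 0.22 (adjusted p = 0.0325, edgeR). Against PBS the same list held 5 higher and 1 lower call for the vitamins (6 and 2 without that library), among them Dusp4 (4.83), Dusp16 (1.67) and Dusp5 (1.80).

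Zfp36l1 and Zfp36l2 encode decay factors related to tristetraprolin. Zfp36l1 read 35.0, 19.7 and 33.6 FPKM with RANKL and 2.01, 7.32 and 4.78 with the vitamins, a log2 fold change of -2.55 ± 0.39 (adjusted p = 0.00222, edgeR). Zfp36l2, named after its values were seen, read 97.6, 86.7 and 95.3 with RANKL and 280.3, 67.5 and 208.3 with the vitamins (1.19 ± 0.44, adjusted p = 0.0657, edgeR), and was called higher without vitamin replicate 2 (1.61, adjusted p = 7.8e-05, edgeR). Of 8 AU-rich mRNAs tested that tristetraprolin is known to bind, 3 were called higher against RANKL in the vitamin group and 2 lower. Ccl3, a macrophage chemokine, read 19.2, 16.5 and 9.57 FPKM with RANKL and 455.3, 116.1 and 324.4 with the vitamins (4.51 ± 0.58, adjusted p = 0.00113, edgeR). Ptgs2, which encodes the prostaglandin enzyme COX-2, and Cxcl2, a neutrophil chemokine, were higher by 3.93 ± 0.38 and 3.29 ± 0.59 (adjusted p = 0.000394 and 0.00401, edgeR). The anti-inflammatory cytokine gene Il10 was lower, from 86, 81 and 24 counts with RANKL to 0, 7 and 0 with the vitamins (adjusted p = 0.0103, edgeR). Il1b, the fifth of these calls, had 142, 32 and 506 counts with RANKL and none in the 3 vitamin libraries (adjusted p = 0.0169, edgeR).

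In a list of 21 further immediate early genes, the vitamins against RANKL gave 9 higher and 5 lower calls, and without vitamin replicate 2 the numbers were 12 and 6. Plk2, a stress-induced polo-like kinase, read 3.36, 3.37 and 2.39 FPKM with RANKL and 297.3, 52.7 and 215.3 with the vitamins (6.16 ± 0.65, adjusted p = 0.000573, edgeR). Ppp1r15a, which encodes the phosphatase subunit GADD34 of the integrated stress response, was higher by 3.22 ± 0.42 (adjusted p = 0.00118, edgeR), and Klf4, a monocyte transcription factor, by 1.71 ± 0.16 (adjusted p = 0.000362, edgeR). Klf10, a TGF-beta-induced repressor, was lower, at -1.56 ± 0.17 (adjusted p = 0.000592, edgeR). Between RANKL and PBS, 3 genes of this list were higher, Myc (3.93 ± 0.72), Klf4 (0.85 ± 0.16) and Klf10 (0.83 ± 0.16), with adjusted p of 0.0217, 0.0215 and 0.0283 in edgeR. Myc read 0.217, 0.636 and 0.345 FPKM in PBS, 4.01, 14.04 and 2.57 with RANKL and 48.1, 18.5 and 24.99 with the vitamins. In this gene too the RANKL libraries ran in the replicate order of Fos, while all vitamin libraries lay above them.

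Of 22 upstream kinases and transcription factors, 6 had a higher and 5 a lower call for the vitamins against RANKL, and 9 and 6 without vitamin replicate 2. The lowest adjusted p belonged to Atf1, a CREB relative (1.65 ± 0.24, adjusted p = 0.00172, edgeR), Mkl2, an SRF coactivator (1.36 ± 0.27, 0.00627), Mapk8, which encodes JNK1 (0.69 ± 0.15, 0.00971), and Mapk14, which encodes p38 alpha (-1.81 ± 0.48, 0.0191). These are mRNA levels and not the activities of the kinases.

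**Figure D5:**
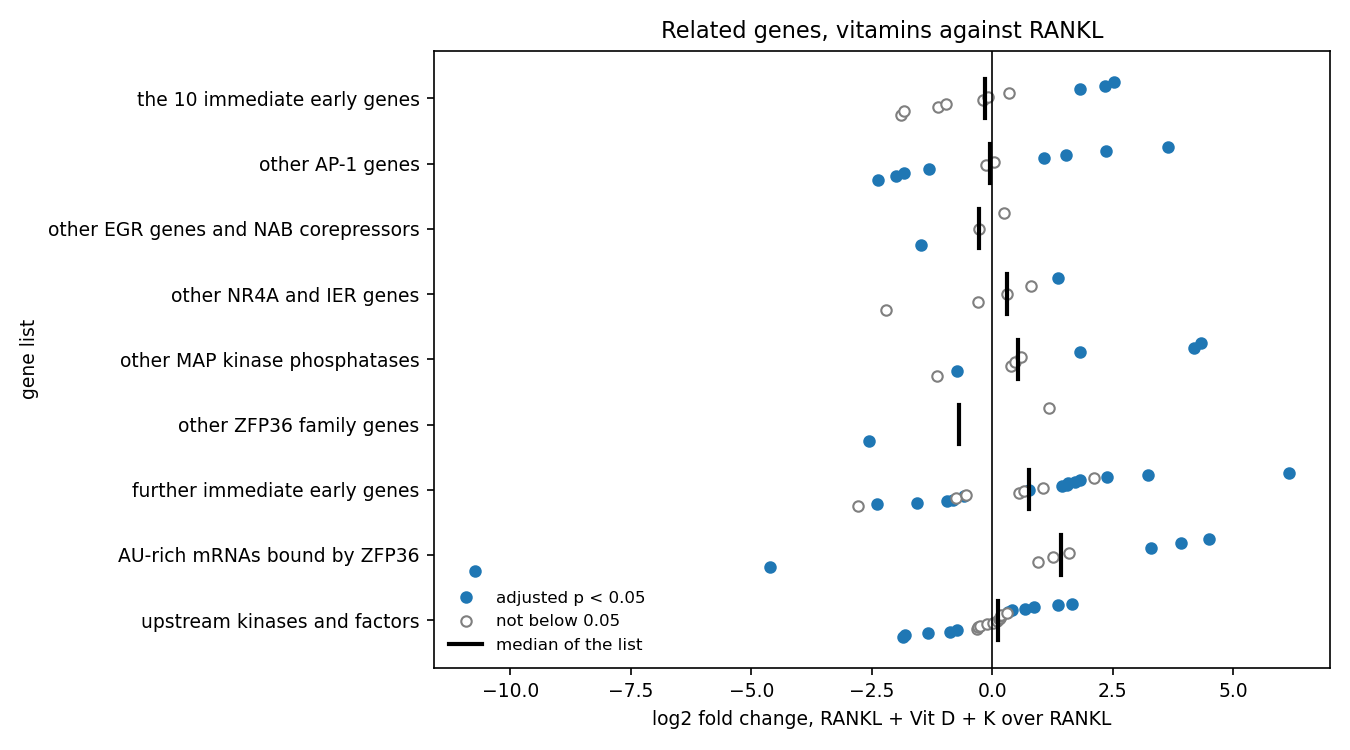
Log2 fold change of RANKL + Vit D + K over RANKL for the 10 genes and the 8 related lists, with 1 point per gene tested, filled where the adjusted p was below 0.05, and a bar at the median of each list. The other AP-1, phosphatase, AU-rich, further immediate early and upstream lists hold called genes on both sides of 0, and Plk2 at 6.16 is the highest point. The leftmost point, Il1b, had no counts in the vitamin libraries, so its fitted value there is not a measured fold.

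The genes most like the mean of the 10 across libraries were found by Pearson's r between a gene's log2 CPM and the mean of the standardised values of the 10 genes, over 9 libraries. They were Timm13, a mitochondrial import chaperone (0.972), Haus1, an augmin subunit (0.953), Ap2m1, a clathrin adaptor subunit (0.945), Uba1, the main ubiquitin-activating enzyme (0.943), and Gm21817 (0.929), which had at most 33 counts in a library. Timm13 read 17.1, 17.0 and 14.6 FPKM in PBS, 20.2, 25.9 and 16.8 with RANKL and 15.1, 25.2 and 13.8 with the vitamins. Replicate 2 was thus the highest with RANKL and with the vitamins for Timm13, by a smaller margin than for Fos. Jun and Egr2 were lowest in vitamin replicate 2, so a gene like the mean need not follow each of the 10. These values describe 9 libraries of 3 groups that share depth and processing, and they carry no p.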

How the data were processed

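mRNA of mouse BMDMs was sequenced in 3 groups of 3 libraries, grouped by the treatment labels. Per the submitters' processing notes, cutadapt 1.9, HISAT2 2.0.4, StringTie 1.3.4d and edgeR were used. The authors deposited 1 table with whole-number read counts and FPKM values (normalised for length and depth by the authors) for 28379 genes, and all its sample columns were used. A count of 4 occurred 2.22 times as often as a count of 3 or 5 on average, so the deposited counts may be rebuilt from coverage. The notes list hg38, but 99.7% of the gene identifiers are in the mouse GENCODE M21 annotation (GRCm38), of which 87.22% have an identical position. Whether counting used strand is not given in the sources used here.

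Testing used edgeR 4.0.16 on the counts (R 4.3.3, TMM, filterByExpr, quasi-likelihood test, all 9 libraries in 1 model, Benjamini-Hochberg adjustment over 17002 genes, calls at an adjusted p below 0.05). Alternatives used limma 3.58.1 on log2(FPKM + 0.1) and log2(FPKM + 1), voom with sample quality weights and DESeq2 1.42.0. The scripts were tested on simulated data for the vitamins against RANKL. There edgeR called 20% of 2-fold and 57% of 4-fold changes, with 3 false calls among 16802 unchanged genes. DESeq2 called 35% and 67%, with 39 false calls. A missing call therefore does not show that a gene was unchanged. Levels are compared between genes only as FPKM. Named were all 10 genes, from each related list at most 4 called genes with the lowest adjusted p per comparison, and the 5 most similar genes, and 1 gene that this rule names is not reported here. The members, lists and promoter motifs were chosen with earlier results of these data or the sequences known, and leaving out replicate 2 of every group was added after seeing the data. Replicate numbers are shared by the groups. Deviations of same-numbered libraries correlated at 0.122, 0.219 and 0.155 between RANKL and PBS, so those were taken as paired. They correlated at 0.00625 to 0.107 (vitamins and RANKL) and -0.0216 to 0.0237 (vitamins and PBS), so these were not. The main model held group only, so its RANKL against PBS values do not use the pairing. A model with a replicate block was fitted as an alternative.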

Additional observations from a re-analysis of the deposited data

How the results depend on the processing

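Under 19 alternative settings, Jun and Egr2 stayed higher with the vitamins than with RANKL or PBS and called. With the replicate block, which applies to the paired RANKL against PBS comparison, 825 genes were called instead of 614, and none of the 10 immediate early genes. In the unpaired comparisons the block gave 5873 calls against 5725 (vitamins against RANKL) and 7041 against 6932 (vitamins against PBS). The block changed no call among the 10 but turned the vitamins against PBS values of Fos to -2.09 and Egr1 to -0.52. For RANKL against PBS its log2 fold changes were 1.69 for Fos, -0.56 for Jun, 0.90 for Junb, 1.05 for Egr1 and 1.07 for Egr2. The lowest adjusted p of the 10 was that of Junb (0.103, edgeR). In FPKM, each RANKL library lay above the same-numbered PBS library for Fos, Junb, Egr1, Egr2 and Ier2 and below it for Jun. The sign was mixed for Fosb, Nr4a1, Dusp1 and Zfp36.

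For RANKL against PBS, DESeq2 called 1706 genes and 1 of the 10 (higher), a fit of these groups alone 1736 genes and 1 of the 10 (higher), and voom with sample quality weights 3006 genes and 2 of the 10 (1 higher, Junb, and 1 lower, Jun), with Dusp1 reversed to -0.18 and Zfp36 to -0.033. Voom weights called 10698 genes and 9 of the 10, 5 of them lower, for the vitamins against RANKL. For the vitamins against PBS they called 10899 genes and 8 of the 10, 4 of them lower, with Fos reversed to -4.82, Egr1 to -3.24 and Zfp36 to -0.044. Fos against PBS was also reversed on log2(FPKM + 0.1) with or without the filter (-2.50) and on log2(FPKM + 1) (-1.71), and Egr1 on log2(FPKM + 0.1) with or without the filter (-0.45). The cause of these changes was not tested. Dusp1 against RANKL missed the threshold on log2(FPKM + 0.1) without the filter (1.81, adjusted p = 0.0575, limma). 

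Without replicate 2 of every group, an alternative added after seeing the data, RANKL against PBS gave 1740 genes and 1 of the 10 (higher), with Dusp1 reversed to -0.068. The vitamins then gave 8952 genes and 9 of the 10 (5 lower) against RANKL, with Zfp36 reversed to 0.222, and 9240 genes and 9 of the 10 (5 lower) against PBS, with Fos reversed to -4.52 and Egr1 to -2.33.

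Leaving out each library in turn, RANKL against PBS gave 126 to 1903 genes and 0 to 2 of the 10 (0 to 2 higher), with 1903 and 2 reached without vitamin replicate 2. The log2 fold changes spanned -0.19 to 0.79 for Fosb, -0.023 to 0.54 for Ier2, -0.53 to 0.084 for Nr4a1, -0.49 to 0.66 for Dusp1 and -0.16 to 0.45 for Zfp36. The vitamins against RANKL gave 3199 to 8259 genes, with 2 to 8 of the 10 called (0 to 5 lower), Egr1 at -4.72 to 1.11 and Zfp36 at -0.39 to 0.22. Against PBS they gave 4766 to 8868 genes and 3 to 8 of the 10 (0 to 4 lower), Fos at -4.97 to 0.73, Egr1 at -2.79 to 2.38 and Zfp36 at -0.079 to 0.30. In these fits with 1 library left out, each lower call among the 10 came without vitamin replicate 2.

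Precision is limited by the number of libraries, 3 per group, and by low counts for Fosb, Egr3 and Dusp8.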
